A study of Mus musculus with 4 samples.

Results

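Cadherins and protocadherins are the members of the cadherin superfamily whose gene names start with Cdh and a number or with Pcdh. They were examined on arrays of mouse hippocampus. A probe set, the unit in which an Affymetrix array reports a transcript, was taken as a member when its platform annotation gave 1 gene symbol of this form. The rule found 101 of 45037 probe sets, which represented 56 genes, 21 of them Cdh genes and 35 Pcdh genes. A further 6 probe sets listed several protocadherin genes each and were left out by the rule. Hippocampi were dissected from pups on postnatal day 2, either wildtype littermates (control, 2 arrays) or ZBTB20 knockout animals (2 arrays), to look for genes that depend on this zinc finger transcription factor during hippocampal development. Strain, the knockout allele and the number of animals behind an array could not be taken from the labels, so p-values may measure technical spread only.

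Cadherins are calcium-dependent adhesion molecules of the cell surface. Classical cadherins bind the same or a related cadherin on the next cell and are tied to actin through catenins. The type I group holds the strongly adhesive founders of the family, and the type II group is laid out in many partly overlapping patterns over brain nuclei, layers and synapses. Protocadherins share the extracellular cadherin repeats but not the catenin-binding tail. Those of the delta group lie outside the gene clusters and act in axon growth, cell sorting and synapse remodelling. The clustered alpha, beta and gamma genes lie side by side, and each neuron uses its own choice of them as a surface identity. In the hippocampus, classical cadherins take part in the matching of mossy fibres with their targets and in the upkeep of dendritic spines.

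The 4 arrays came on 2 scales that followed the replicate number of the labels. The trimmed mean signal was 498 and 497 in replicate 1, and 158 and 156 in replicate 2, control first. Each comparison is therefore given within a replicate number, as the log2 difference of the array labelled knockout minus the control array, after 32.56 was added to every signal. Such a pair sets 1 array against 1 array and has no test. Zbtb20 itself did not settle the labels, since 0 of its 9 probe sets had the lower signal under the knockout label in both pairs. The probe set 1443471_at read 4939 (control label) and 2412 (knockout label) in replicate 1, then 284 and 592 in replicate 2. In all, 3 of the 9 were lower under the knockout label in replicate 1 and 2 of the 9 in replicate 2, and every direction below follows the labels as given. Neuronal markers (Rbfox3, Map2, Syn1, Tubb3 and Neurod6) were well represented, with a median percentile among all probe sets between 98.2 and 98.4 on the 4 arrays. The 5 genes listed as markers of hippocampal fields (Prox1, Lef1, Pou3f1, Wfs1 and Zbtb20 itself) had a median percentile between 66.1 and 84.1, and all 5 were above the filter on dim signals.

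Of the 56 genes, 37 had at least 1 probe set with a mean above the 40th percentile of all probe sets, the level required for testing, and 64 of the 101 probe sets passed. The other 19 genes were dim. Among the cadherins these were Cdh1 and Cdh3, the epithelial and placental cadherins, the kidney and gut cadherins Cdh16 and Cdh17, Cdh18, Cdh19, the hair cell tip link component Cdh23, and Cdh26. Among the protocadherins they were Pcdh1, the endothelial Pcdh12, and Pcdhb1, Pcdhb2, Pcdhb4, Pcdhb5, Pcdhb6, Pcdhb11, Pcdhb13, Pcdhb14 and Pcdhb18. The signals of all probe sets of these 19 genes lay between 1.3 and 142 on the replicate 1 arrays and between 17.1 and 120 on the replicate 2 arrays. The 37 probe sets below the filter spread from log2 -1.60 to 1.04 in the replicate 1 pair and from -0.21 to 0.23 in the replicate 2 pair.

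**Figure D1:**
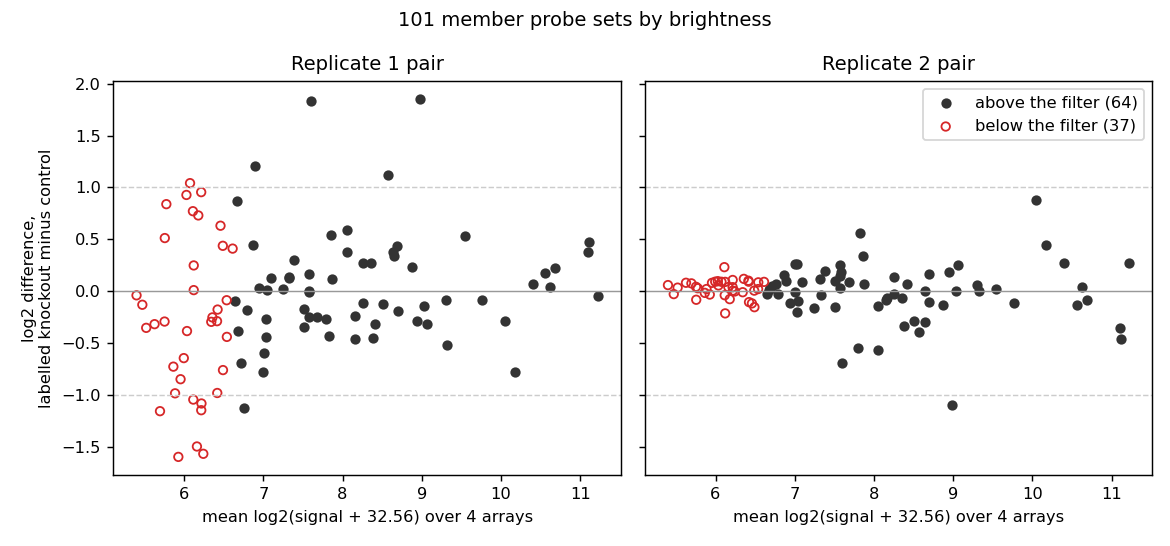
Log2 difference (vertical axis) against mean log2 signal over the 4 arrays (horizontal axis) for the 101 member probe sets, with the replicate 1 pair on the left and the replicate 2 pair on the right; dashed lines mark a 2-fold difference. The 37 dim probe sets, drawn as open circles, reached -1.60 in the replicate 1 pair and stayed between -0.21 and 0.23 in the replicate 2 pair.

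Over all 4 arrays no cadherin or protocadherin passed the test. In limma's fit on 27022 probe sets, 0 of 64 member probe sets had an adjusted p under 0.05 and 0 had one under 0.05 before adjustment. Over all probe sets 0 were called (0%), and 5 were under 0.05 before adjustment (0.0185%). When the fit held the replicate number as a block, limma again called 0 of 64 members and 0 of all probe sets (0%), with 0 members and 330 of all probe sets (1.22%) under 0.05 before adjustment. The standard errors of the members ranged from 0.57 to 1.85 without the block, since the scales enter them, and from 0.16 to 0.58 with it. The smallest unadjusted p of a member was 0.33 (Pcdhb3) without and 0.053 (Pcdhb16) with the block.

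For the pair values each gene was represented by its brightest tested probe set. The 37 genes had a median difference of log2 0.03 in the replicate 1 pair and 0.02 in the replicate 2 pair, against -0.01 and -0.0006 for all 12581 genes. In the replicate 1 pair 3 of 37 genes were over 2-fold higher in the array labelled knockout, where 1.49% of all genes were, and 0 were over 2-fold lower, where 2.58% were. In the replicate 2 pair 0 were over 2-fold higher, against 0.254% of all genes, and 1 was over 2-fold lower, against 0.405%. Opposite signs in the pairs occurred for 21 of 37 genes, close to the 53.5% of all genes. The 3 genes were Pcdh20, Pcdh7 and Pcdhb3, and the 1 gene was Pcdh20. Pcdhb3 and Pcdhb10 passed the filter only through the arrays labelled knockout (control means of log2 6.56 and 6.45, where the brightest probe set left out had 6.63), so these counts support nothing about the family. With a filter at the 60th percentile 2 genes were over 2-fold higher in the replicate 1 pair. Among the other tested probe sets of the 37 genes, 1444736_at of Cdh7 was over 2-fold lower in the replicate 1 pair, at -1.12. It passed the filter only through the control arrays (means of log2 7.02 for control and 6.49 for the knockout label), so this value supports nothing either. Across the 37 genes, which share the same 4 arrays, the differences of the pairs had a Pearson's r of -0.55 and a Spearman's rho of -0.27. Without Pcdh20 they were -0.31 and -0.21, and over all 12581 genes they were -0.24 and -0.16.

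**Figure D2:**
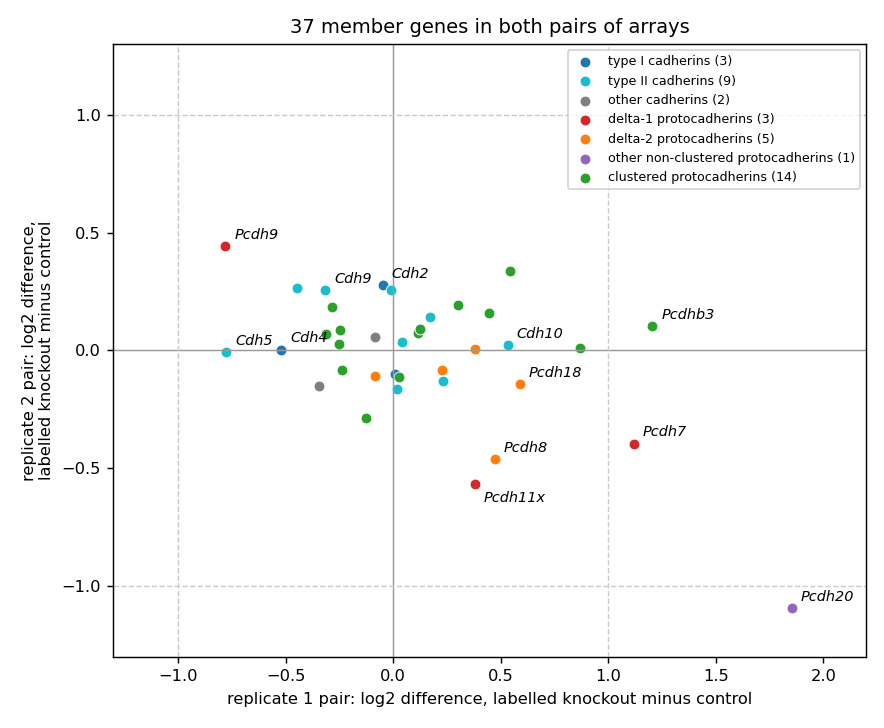
Log2 difference in the replicate 2 pair (vertical axis) against that in the replicate 1 pair (horizontal axis) for the 37 tested genes, coloured by subfamily, with 1 probe set per gene; dashed lines mark a 2-fold difference. Pcdh20 lies alone at 1.85 and -1.09, Pcdh7 and Pcdh9 lie on opposite sides at 1.12 and -0.78 in the replicate 1 pair, and the type I cadherins stay within 0.52 of zero in both pairs.

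Pcdh20, a non-clustered protocadherin known for placing layer 4 neurons in the neocortex, had the widest values. Probe set 1424701_at read 381 (control label) and 1462 (knockout label) in replicate 1, then 444 and 191 in replicate 2. The array labelled knockout was thus the higher in replicate 1 and the lower in replicate 2, and the groups overlapped. The log2 difference was 1.85 in the replicate 1 pair and -1.09 in the replicate 2 pair. A second probe set, 1451454_at, read 117 (control label) and 499 (knockout label) in replicate 1, then 137 and 72.5 in replicate 2, or 1.83 and -0.69. Pcdh20 was the 1 member among 37 whose pairs were each over 2-fold apart and of opposite sign, where 0.302% of all genes were. Its mean difference over both pairs was 0.38 ± 1.45 (SE, n = 2 per group; limma, adjusted p = 1). With the replicate block the SE was 0.58 and the adjusted p 0.9999. Each pair holds 1 array per group, so the difference between the pairs could not be tested. Across 8 alternative settings the value lay between 1.74 and 1.94 in the replicate 1 pair and between -1.31 and -0.89 in the replicate 2 pair.

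The delta-1 protocadherins Pcdh7, Pcdh9 and Pcdh11x, which have long cytoplasmic tails with a phosphatase-binding motif, each had opposite signs in the pairs. Pcdh7 (1456214_at) read 394 (control label) and 894 (knockout label) in replicate 1, then 231 and 168 in replicate 2. This is the same order as for Pcdh20, at log2 1.12 and -0.40. Its other tested probe set, 1427592_at, was at 0.13 and -0.03, so the size of the Pcdh7 difference depended on the probe set (0.62 and -0.22 averaged). Pcdh9 ran the other way. Its probe set 1429861_at read 1691 (control label) and 971 (knockout label) in replicate 1, then 838 and 1149 in replicate 2, or -0.78 and 0.44. Its probe sets 1442659_at and 1458269_at were at -0.29 and -0.43 in the replicate 1 pair and at 0.88 and 0.56 in the replicate 2 pair, so all 3 had the same order. The X-linked Pcdh11x (1436449_at) read 198 (control label) and 267 (knockout label) in replicate 1, then 294 and 187 in replicate 2, or 0.38 and -0.57. Its second probe set, 1438889_at, was at -0.27 and -0.54, so only the lower signal under the knockout label in replicate 2 was shared by both.

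Among the delta-2 protocadherins, Pcdh8 (arcadlin), an activity-induced protein that drives N-cadherin from synapses, had opposite signs with both probe sets. Probe set 1447825_x_at read 3643 (control label) and 5065 (knockout label) in replicate 1, then 1295 and 932 in replicate 2. The order was again that of Pcdh20, at log2 0.47 and -0.46, and 1417051_at gave 0.38 and -0.36. Pcdh17, which helps to assemble presynaptic vesicles, read 1298 (control label) and 1224 (knockout label) in replicate 1, then 575 and 531 in replicate 2. Its differences of -0.08 and -0.11 were small in both pairs. Pcdh19, an X-linked gene of epilepsy that acts with N-cadherin, read 2680 (control label) and 3139 (knockout label) in replicate 1, then 922 and 867 in replicate 2, or 0.23 and -0.08. Its probe set 1437360_at was at 0.18 and -0.13, but 1444422_at was higher in both pairs, at 0.27 and 0.13. The Pcdh19 probe sets thus shared a sign only in replicate 1. Pcdh10, which acts in axon growth and synapse elimination, read 335 (control label) and 446 (knockout label) in replicate 1, then 346 and 347 in replicate 2, or 0.38 and 0.0061. Of its 6 tested probe sets, 3 were higher and 3 lower in the replicate 1 pair, so no direction is given for Pcdh10. Pcdh18 was at 0.59 and -0.14 with its brightest probe set and at -0.69 and 0.05 with the other, which passed the filter only through the control arrays.

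**Figure D3:**
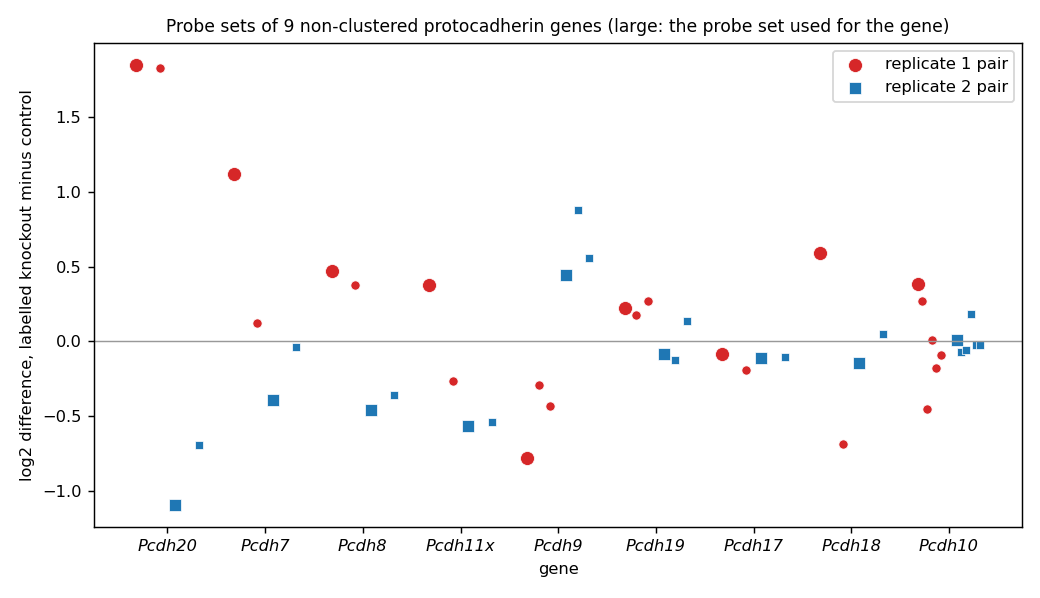
Log2 difference (vertical axis) of every tested probe set of 9 non-clustered protocadherin genes, with circles for the replicate 1 pair, squares for the replicate 2 pair and large symbols for the probe set used for the gene. Every probe set of Pcdh20, Pcdh7, Pcdh8 and Pcdh9 lay on opposite sides of zero in the pairs, while those of Pcdh10 and Pcdh18 fell on both sides of zero within a pair.

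Over all members, 19 genes had 2 or more tested probe sets. In 8 of them every probe set had 1 sign in the replicate 1 pair and the other sign in the replicate 2 pair. These were Pcdh7, Pcdh8, Pcdh9, Pcdh20, Cdh6, Cdh7, Cdh8 and Cdh13. The share over all genes with 2 or more tested probe sets was not computed, so this count shows nothing particular to the family. With 1 probe set each, 53.5% of all genes had opposite signs in the pairs. In 6 of the 19 the probe sets disagreed in sign within the replicate 1 pair, among them Cdh2, Cdh10, Pcdh10 and Pcdh18. Of the probe sets counted, 1450288_at of Cdh6, 1444736_at of Cdh7, 1444301_at of Pcdh10 and 1422890_at of Pcdh18 passed the filter only through the control arrays. Their means under the knockout label lay between log2 6.49 and 6.62, where the brightest probe set left out had 6.63. The agreement within Cdh6 and Cdh7 and the disagreement within Pcdh18 therefore support nothing. Probe sets of 1 gene share their RNA and are not replicates. The names of 4 member probe sets end in s or x, which marks probes that can also bind other transcripts, 1447825_x_at of Pcdh8 among them.

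Pcdh8, Pcdh17, Pcdh20 and Pcdh9 lie on chromosome 14 in this order (RefSeq, GRCm38.p6), and Pcdh7 lies on chromosome 5. The promoter windows of the 4 protocadherins whose tested probe sets all had opposite signs in the pairs are shown to let their sequence be set beside their values. Each runs from 250 bases before to 50 bases after a RefSeq transcription start, 5′ to 3′ on the gene's strand, and capitals mark the motifs CCAAT and TATAAA and their reverse complements ATTGG and TTTATA.
Pcdh20 (chr14:88471347-88471646, minus strand): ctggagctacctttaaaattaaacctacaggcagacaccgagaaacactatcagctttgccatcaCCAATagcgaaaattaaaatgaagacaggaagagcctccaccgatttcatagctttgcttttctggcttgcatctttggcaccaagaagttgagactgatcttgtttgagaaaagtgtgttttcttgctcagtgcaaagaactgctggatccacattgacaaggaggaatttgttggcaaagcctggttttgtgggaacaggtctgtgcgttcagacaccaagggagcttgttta
Pcdh7 (chr5:57717831-57718130, plus strand): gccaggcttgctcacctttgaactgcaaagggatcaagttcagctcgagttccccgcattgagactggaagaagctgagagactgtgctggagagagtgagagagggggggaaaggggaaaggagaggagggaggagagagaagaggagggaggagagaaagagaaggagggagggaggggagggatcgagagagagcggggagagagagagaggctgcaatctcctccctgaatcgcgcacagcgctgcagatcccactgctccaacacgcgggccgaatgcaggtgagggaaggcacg
Pcdh8 (chr14:79771263-79771562, minus strand): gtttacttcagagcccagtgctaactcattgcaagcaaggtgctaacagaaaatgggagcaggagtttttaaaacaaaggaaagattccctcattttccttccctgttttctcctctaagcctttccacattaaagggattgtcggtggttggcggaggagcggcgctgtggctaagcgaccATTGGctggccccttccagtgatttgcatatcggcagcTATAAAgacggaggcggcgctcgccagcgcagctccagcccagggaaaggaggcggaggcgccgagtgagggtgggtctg
Pcdh9 (chr14:93890630-93890929, minus strand): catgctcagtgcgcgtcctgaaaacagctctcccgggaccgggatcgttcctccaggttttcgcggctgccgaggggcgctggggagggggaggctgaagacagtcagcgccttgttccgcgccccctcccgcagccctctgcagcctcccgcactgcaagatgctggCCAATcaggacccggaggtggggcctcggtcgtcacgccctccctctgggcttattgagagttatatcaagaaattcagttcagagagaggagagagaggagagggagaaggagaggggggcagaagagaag

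The Pcdh20 window was the poorest of these 4 in G and C, at 43.7% with 4 CpG dinucleotides, against 59.3% and 11 for Pcdh7, 54.3% and 14 for Pcdh8 and 62.7% and 18 for Pcdh9. RefSeq windows were matched for 20 of the 56 member genes, with 23 windows in all because Cdh7 had 3 and Pcdh9 had 2 that overlap, the first listed of which is printed. None of the 20 is among the 26 member genes on chromosome 18, so Cdh2 and every clustered protocadherin stand outside these shares. Their median was 60.3% G and C and 14 CpG, against 52.7% and 7 over all 32851 windows. CCAAT, searched on both strands, was in 17 of the 23 member windows (73.9%), or 15 of 20 genes with 1 window each, and in 37.4% of all windows, and TATAAA was in 2 of 23 (8.70%) and in 13.6% of all. Of the windows printed, Pcdh20, Pcdh8 and Pcdh9 held CCAAT and Pcdh8 alone held TATAAA. A match is a description of these letters only.

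Of the type I cadherins, 3 genes were tested. Cdh2 (N-cadherin), the main neuronal cadherin of the neuroepithelium and of synapses, read 4510 (control label) and 4358 (knockout label) in replicate 1, then 1132 and 1377 in replicate 2. The log2 differences were -0.05 and 0.28, and a second probe set was at 0.07 and 0.27. The 2 Cdh2 probe sets thus had different signs in the replicate 1 pair, each within 0.1 of zero. Cdh4 (R-cadherin), which can pair with N-cadherin, read 1615 (control label) and 1117 (knockout label) in replicate 1, then 265 and 266 in replicate 2, or -0.52 and 0.0033. The order in replicate 1 was that of Pcdh9, and there was next to no difference in replicate 2. With its tested probe sets averaged, Cdh4 was at -0.32 in the replicate 1 pair. The muscle cadherin gene Cdh15 was at 0.0090 and -0.10.

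The 9 tested type II cadherins had a median of 0.02 in the replicate 1 pair and 0.04 in the replicate 2 pair, and with the brightest probe set 0 of them were over 2-fold apart in either pair. Cdh9, which acts at synapses between mossy fibres and CA3 neurons, read 698 (control label) and 555 (knockout label) in replicate 1, then 369 and 447 in replicate 2. Its differences of -0.32 and 0.26 had the order of Pcdh9. Cdh8, found at excitatory synapses, read 503 (control label) and 596 (knockout label) in replicate 1, then 365 and 330 in replicate 2. Its differences of 0.23 and -0.13 had the order of Pcdh20, and 1455365_at gave 0.34 and -0.30. Cdh6, an early marker of brain subdivisions, read 272 (control label) and 271 (knockout label) in replicate 1, then 77.0 and 98.2 in replicate 2, or -0.0081 and 0.26. Its other tested probe set, 1450288_at, was at -0.39 and 0.03, so the probe sets shared the signs but not which pair had the larger difference. That probe set passed the filter only through the control arrays.

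Cdh10, which is widely expressed in the forebrain, read 958 (control label) and 1400 (knockout label) in replicate 1, then 429 and 436 in replicate 2. Its brightest probe set was at 0.53 and 0.02, but 2 of its 3 tested probe sets were lower in both pairs (1460538_at at -0.45 and -0.34, 1433302_at at -0.27 and -0.20), so no direction is given for Cdh10. Cdh11, of mesenchyme and of developing neurons, read 2959 (control label) and 3046 (knockout label) in replicate 1, then 776 and 797 in replicate 2. Its differences of 0.04 and 0.04 were alike, and 1435120_at was at 0.43 and 0.17. The remaining type II genes were dimmer. Cdh7 was at -0.44 and 0.27 with its brightest probe set. Its other tested probe set, 1444736_at, read 199 (control label) and 73.6 (knockout label) in replicate 1, then 40.5 and 44.0 in replicate 2, or -1.12 and 0.07. Both probe sets of Cdh7 were thus lower under the knockout label in replicate 1, by different sizes. However, 1444736_at passed the filter only through the control arrays, so it lends no support to the direction. Cdh20 was at 0.17 and 0.14 and Cdh22 at 0.02 and -0.16. Cdh5 (VE-cadherin), the junctional cadherin of endothelium, read 164 (control label) and 82.2 (knockout label) in replicate 1, then 76.6 and 76.0 in replicate 2, or -0.78 and -0.0086.

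Outside the classical groups, the atypical genes Cdh13 and Pcdh15 were tested. Cdh13 (T-cadherin), which is held by a lipid anchor and has no cytoplasmic tail, read 1788 (control label) and 1685 (knockout label) in replicate 1, then 188 and 198 in replicate 2. Its differences of -0.08 and 0.06 were small, and its 3 probe sets had the same order. Pcdh15, the partner of Cdh23 in the tip link of hair cells, was at -0.34 and -0.15.

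**Figure D4:**
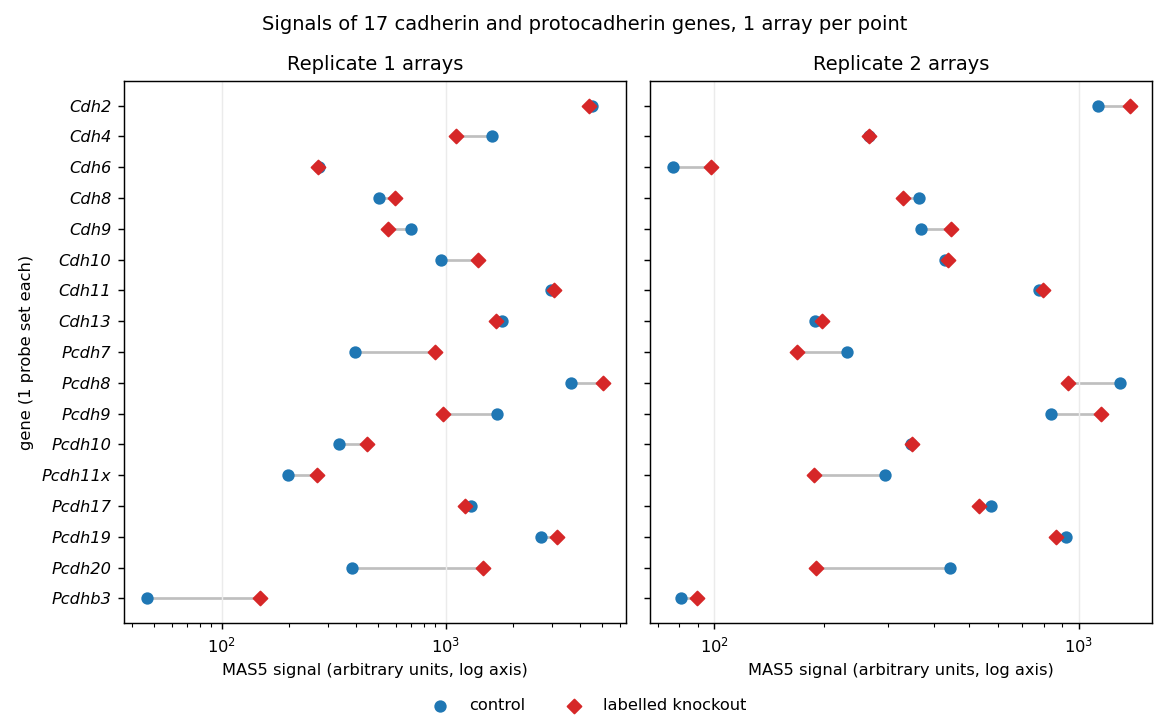
MAS5 signal (horizontal log axis, arbitrary units) of 17 member genes, 1 probe set each, on the replicate 1 arrays (left) and the replicate 2 arrays (right), with circles for control, diamonds for the arrays labelled knockout and a grey line joining them. The widest lines belong to Pcdh20, from 381 to 1462 in replicate 1 and from 444 down to 191 in replicate 2, while Cdh11 and Cdh13 nearly coincide in both panels.

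In the replicate 2 pair the tested clustered protocadherins lay between -0.29 and 0.34, and the tested type II cadherins between -0.16 and 0.27. Of 23 clustered genes under the rule, 22 of the beta cluster and Pcdhgc4 of the gamma cluster, 14 had a tested probe set. Their medians were 0.07 and 0.08. In the replicate 2 pair 11 of 14 were higher and 3 lower in the array labelled knockout, where 6270 of all 12581 genes were higher. In the replicate 1 pair 8 were higher and 6 lower, where 6113 of all 12581 genes were higher. Pcdhb3 and Pcdhb10, which passed the filter only through the arrays labelled knockout, were among the 11 and among the 8. Signs were opposite for 5 of the 14 (35.7%), against 53.5% of all genes, a description without a test. Pcdhb3 and Pcdhb10 were higher in both pairs and so count among the genes with the same sign. These counts and medians therefore support nothing about the clustered genes. Pcdhb3 had the largest value, reading 46.3 (control label) and 149 (knockout label) in replicate 1, then 81.0 and 89.4 in replicate 2, or 1.20 and 0.10. Its control signal in replicate 1 lay at percentile 26.7 of that array, so the first value rests on a dim probe set, and the limma mean was 0.65 ± 0.67 (SE, n = 2 per group; adjusted p = 1). Pcdhb16 (1441994_at) read 187 (control label) and 286 (knockout label) in replicate 1, then 148 and 196 in replicate 2. Its differences of 0.54 and 0.34 had the same sign, but 1441358_at was at -0.60 and 0.26. Pcdhb17 read 824 (control label) and 671 (knockout label) in replicate 1, then 261 and 301 in replicate 2, or -0.28 and 0.18. Pcdhgc4, a gamma gene needed for the survival of interneurons, read 347 (control label) and 288 (knockout label) in replicate 1, then 84.5 and 91.8 in replicate 2, or -0.25 and 0.09. The other 10 tested beta genes lay between -0.31 and 0.87 in the replicate 1 pair and between -0.29 and 0.19 in the replicate 2 pair.

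Genes that work with the cadherins were compared in the same way, namely catenins, the actin-regulating WAVE complex, proteases, regulators of the clustered promoters, nectins and other members of the superfamily. Of 42 such genes on the array 39 were tested, and 0 of 39 passed limma's test, as for all probe sets. Their medians were 0.05 in the replicate 1 pair and 0.08 in the replicate 2 pair, and 31 of 39 (79.5%) had opposite signs in the pairs, against 53.5% of all genes, a description without a test. Nectin3, an adhesion molecule of CA3 synapses that works beside the cadherins, read 1022 (control label) and 3388 (knockout label) in replicate 1, then 1087 and 545 in replicate 2. The order was that of Pcdh20, at 1.70 and -0.96, or 1.14 and -0.54 with its probe sets averaged. Fat1, a giant atypical cadherin of actin dynamics and planar polarity, read 3129 (control label) and 1454 (knockout label) in replicate 1, then 429 and 1141 in replicate 2, or -1.09 and 1.35, the order of Pcdh9.

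The desmosomal cadherin gene Dsc3 was at -0.85 and 0.91 on dim signals (17.1 to 213), the polarity gene Celsr1 at -0.77 and 0.38, Nectin1 at -0.86 and 0.36 (-0.36 and 0.24 with its probe sets averaged), and the armadillo protein gene Pkp4 at 0.73 and -0.51. Fat3 was at 0.60 and -0.06 and plakoglobin (Jup) at -0.53 and -0.09. Among the catenins, Ctnnb1 (beta-catenin), which joins cadherin tails to alpha-catenin, read 24919 (control label) and 27361 (knockout label) in replicate 1, then 5504 and 5557 in replicate 2, or 0.13 and 0.01. Ctnna2, the neuronal alpha-catenin, was at 0.18 and -0.11, while the epithelial alpha-catenin gene Ctnna1 was at -0.18 and 0.32 and the neuronal delta-catenin gene Ctnnd2 at -0.14 and 0.49. Of the 7 regulators of the clustered promoters, 5 were lower in the replicate 1 pair and higher in the replicate 2 pair, including Ctcf, the looping factor that selects these promoters, at -0.11 and 0.24. Of all 12581 genes 3447 had this order, and the count of regulators is a description without a test. The 7 lay between -0.30 and 0.39 in the replicate 1 pair and between -0.06 and 0.31 in the replicate 2 pair.

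Markers of neighbouring cell types also differed within the pairs. All 6 interneuron markers had the higher signal under the knockout label in the replicate 1 pair and lower in the replicate 2 pair (medians 0.31 and -0.84), the order of Pcdh20, Pcdh7 and Pcdh8. Their summed signal was 9335 (control label) and 12528 (knockout label) in replicate 1, and 3559 and 2035 in replicate 2. All 4 markers of subplate and deep cortex had the reverse order (medians -0.87 and 1.43), that of Pcdh9 and Fat1, with sums of 10875 and 3765 in replicate 1 and of 790 and 2858 in replicate 2. In the replicate 1 pair only Nr4a2 and Tshz2 differed widely, at -1.61 and -1.91, while Tbr1 and Ccn2 were at -0.01 and -0.12. Of 6 endothelial markers 4 were lower in the array labelled knockout of replicate 1, where 6464 of all 12581 genes were. Cldn5 and Flt1 were higher there, at 0.30 and 0.46, so the 6 had no shared direction to set beside Cdh5. The sums of the 6 were 2832 and 2942 in replicate 1 and 890 and 873 in replicate 2. Of 7 tested hepatocyte markers 6 were over 2-fold lower in the replicate 1 pair. Albumin (Alb) read 39309 (control label) and 15195 (knockout label) in replicate 1, then 42.2 and 45.2 in replicate 2. The sums of the 8 hepatocyte markers on the array, 117176 and 92877 in replicate 1, and 3803 and 9538 in replicate 2, were dominated by Ttr, which the choroid plexus also makes. Of 5 choroid plexus markers 4 were higher under the knockout label in both pairs (medians 0.85 and 0.43), with sums of 1076 and 1829 in replicate 1 and of 310.1 and 381 in replicate 2. Of 6 markers of meninges and fibroblasts 5 were lower in the replicate 1 pair and 3 in the replicate 2 pair (medians -0.82 and -0.05), with sums of 5408 and 2202 in replicate 1 and of 723 and 1233 in replicate 2. Decorin (Dcn) was the widest of them, at -1.74 and 1.36. The lists for astrocytes, microglia, oligodendrocyte lineage, thalamus, neurons and hippocampal fields had medians between 0.0060 and 0.35 in the replicate 1 pair and between -0.31 and 0.14 in the replicate 2 pair. In all these lists 0 markers were at 0, which does not show that they were detected. The lowest signal of any probe set was 0.3 on the replicate 1 arrays and 1.0 on the replicate 2 arrays. The part of these cell types in the cadherin values was not tested, and fewer cells of a type and less RNA per cell cannot be told apart in bulk tissue.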

How the data were processed

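Biotin-labelled cRNA of 4 hippocampal samples was hybridised to Affymetrix arrays. The deposited values are signal intensities on a linear scale, made by the authors with MAS5 per the submitters' processing notes. Its version, scaling target and settings are not given in the sources used here, and the number of arrays limits the precision. Probe sets were named from the platform annotation. All 101 members matched RefSeq by Entrez ID, which updated 0 symbols. Signals were analysed as log2(signal + 32.56), the added value being the 20th percentile of all signals, which understates differences of dim genes. The 27022 probe sets brighter on average than the 40th percentile were tested with limma 3.58.1 in R 4.3.3 (lmFit, eBayes with a mean-variance trend, no covariate, Benjamini-Hochberg over all probe sets, threshold 0.05). The code was tested on simulated data. A gene was represented by its brightest tested probe set, and a value within a pair was called when over 2-fold. Members, lists and tests were chosen with earlier results of these data known. Named genes were those over 2-fold apart in either pair, the 10 with the highest mean, and a list known from nervous tissue, of which Cdh24 was not analysed here; other genes are named to account for every member. Of the working partners, the 8 with the largest difference were named. Ctnnb1, Ctnna2 and Ctcf were named for their role, and the catenin genes Ctnna1 and Ctnnd2 were named beside them. Alternatives were other normalizations, pseudocounts, filters, probe set rules and moderation, the replicate number as a block, and leaving out each array. No label ties the replicate numbers to litters or days. The arrays' scale follows them, so differences are given within a replicate number. The main limma fit did not adjust for the replicate number, and the fit with the replicate block was an alternative.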

Additional observations from a re-analysis of the deposited data

How the results depend on the processing

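The counts of called probe sets, 0 of the members and 0 of all, were the same under every alternative run. That includes the replicate block (0 and 0) and leaving out each array in turn (0 to 0), where the lone array of a group is assumed to vary like the others. Deviations from the group means correlated at 0.837 between arrays of the same number. The median of the members in the replicate 1 pair, 0.0285, was 0.0919 with quantile normalization, 0.0349 with a floor of 1, -0.0286 without a filter, -0.0081 with a filter at the 60th percentile and -0.0116 with averaged probe sets. In the replicate 2 pair, 0.022 became 0.0168 with quantile normalization, 0.039 with arrays scaled to 1 trimmed mean, 0.0048 centred on the 75th percentile, 0.0149 without a filter and 0.0089 with averaged probe sets. The partner medians, 0.0517 and 0.0768, became 0.0266 and 0.1146 with quantile normalization, and the second became 0.0969 with 1 trimmed mean, 0.0226 without a filter and 0.0197 with the stricter filter. Members over 2-fold higher in the replicate 1 pair numbered 2 with 1 trimmed mean, a pseudocount at the 40th percentile, the stricter filter or averaged probe sets, and 4 with a floor of 1 or without a filter, against 3. Members over 2-fold lower numbered 4 in the replicate 1 pair without a filter, and 0 in the replicate 2 pair with a pseudocount at the 40th percentile or averaged probe sets, where Pcdh20 dropped under 2-fold. The cause of these moves was not tested. Of 34 named member values, 7 changed sign under an alternative, the largest of them 0.53 for Cdh10 (-0.06 with its probe sets averaged); no value over 2-fold did.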
